A study of Mus musculus with 15 samples.

Results

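The inner medulla (IM) of the mouse kidney was set against the cortex, with 5 bulk RNA-seq libraries of each zone, 10 of the 15 libraries in the series. The other 5 libraries, from the outer medulla (OM) that lies between these ends, shared in the estimate of spread and are given as values. All pieces were microdissected from kidneys of wild-type male mice whose strain is labelled C56BL/6N. The labels name no treatment in any group, and age is not given in the sources used here. Every gene of the table was compared, with attention to genes silent at either end and to families whose most abundant member differed. By its title the series belongs to a study of spatial expression along the axis from cortex to medulla and of the gradient in tissue osmolality.

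The cortex holds the glomeruli, the proximal convoluted tubules, which take back most of the filtered glucose, amino acids, phosphate and bicarbonate, and the distal convoluted and connecting tubules, where salt and calcium uptake are regulated. The inner medulla holds thin limbs, the last stretch of the collecting ducts, vasa recta and interstitial cells, and its tip, the papilla, is covered by an epithelium that continues into the urothelium. Its interstitium is kept at high osmolality by salt and urea, so that water leaves the collecting duct under vasopressin, and its cells gather organic osmolytes against the salt outside.

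Values are in TPM (transcripts per 1000000), which counts reads per gene length and gives every library the same total of 1000000. The values fall on steps of 1 read, from which read totals were worked back. These came to 16264486 to 25195553 per IM library and 19193837 to 22911368 per cortex library. The median number of reads behind 1 TPM was 20.6 to 30.6 in the IM libraries and 27.6 to 32.8 in the cortex libraries. Differences are IM minus cortex on the scale of log2(TPM + 1), which understates the change of genes with low levels, with the standard error (SE) and the adjusted p of limma. Nothing in the labels ties each library to its own animal, so these p-values measure the spread between the libraries, which may be technical. The median difference over all 15052 genes tested was 0.65, and after median-ratio scaling, which sets the typical gene equal between libraries, it was 0.03. A gene is therefore called higher or lower on both scales only where limma called it in the same direction in both fits, at an adjusted p under 0.05. The IM pieces carried transcripts of the thick ascending limb, a segment of cortex and outer medulla, at summed marker levels of 3248 to 6355 TPM, against 1779.5 to 2264 TPM in the cortex libraries, and their part in the differences of such genes was not tested.

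The ends of the axis differed in most of the genes tested. On both scales 6015 genes were higher in IM (40% of those tested) and 2405 were lower (16%), with differences of at least 2-fold for 2142 (14.2%) and 933 (6.2%). On the TPM scale alone limma called 12972 genes in either direction (86.2%), 10567 genes higher in IM (70.2%) and 2405 lower (16%), and after scaling 6015 higher (40%) and 5806 lower (38.6%). For 1815 genes (12.1%) the 2 scales gave opposite calls, higher in IM as deposited and lower after scaling. For 9667 genes (64.2%) every IM library stood above every cortex library on the TPM scale, and for 1995 (13.3%) every IM library stood below. After scaling these were 5036 (33.5%) and 5024 (33.4%).

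**Figure D1:**
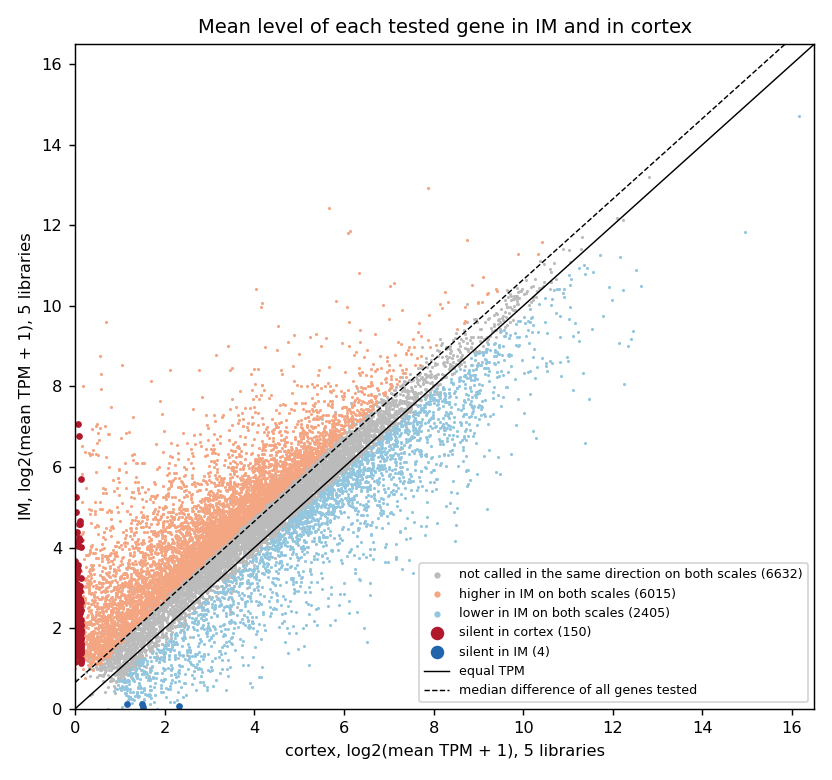
Each point is 1 of the 15052 genes tested, placed by log2 of its mean TPM plus 1 in cortex (horizontal axis) and IM (vertical axis), 5 libraries each, with genes called in the same direction on both scales in colour. The dark red points at the left edge are the 150 genes silent in cortex and the 4 blue points at the bottom are those silent in IM. The dashed line, the median difference of 0.65, lies above the line of equal TPM.

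The cortex libraries drew their TPM from fewer genes than the inner medulla libraries. The most abundant genes that together made up 50% of all TPM numbered 726 to 851 in the IM libraries (median 812) and 344 to 358 in the cortex libraries (median 347). Predicted genes and small RNA rows were left out when the largest losers and gainers were chosen, but they count in the total. The 6 genes that lost most TPM carried 29.8% of all TPM that genes lower in IM gave up. The 6 that gained most carried 7.18% of the same total of 316091 TPM. Kap, an androgen-regulated secreted protein of the proximal tubule, was the largest loser. It stood at 32063, 24283, 29811, 10496 and 36874 TPM in the IM libraries and at 82081, 68072, 79002, 69201 and 68883 TPM in the cortex libraries. IM library 4 was the lowest, and no IM library reached the cortex. Gpx3, the secreted glutathione peroxidase, averaged 3625 ± 1187 TPM in IM and 31747 ± 3374 TPM in cortex (SD, n = 5 each). Further losers of this group were Miox, the enzyme that opens the inositol ring (660.0 against 5597 TPM), the cytochrome P450 gene Cyp4b1 (574 against 5429 TPM) and the phosphate cotransporter Slc34a1 (516 against 5175 TPM). All 5 are known as proximal tubule transcripts, and all were called lower on both scales. In bulk tissue fewer cells of a type and less RNA per cell cannot be told apart.

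With predicted genes and small RNA rows left out, the largest gainer was Aqp2, the vasopressin-regulated water channel. It stood at 5975, 9067, 8252, 9476 and 5948 TPM in the IM libraries and 171, 237, 267, 261 and 232 TPM in the cortex libraries. Its lowest IM library was far above its highest cortex library (log2 difference 5.03, SE 0.16, limma adjusted p = 2.42e-13, and 4.33 after scaling). It was followed by Cryab, a small heat shock chaperone (5533 ± 1261 TPM in IM, 49.8 ± 26.6 TPM in cortex), and by Akr1b3, the aldose reductase that makes the osmolyte sorbitol (3599.8 ± 944 TPM in IM, 67 ± 9.91 TPM in cortex). Reads of Akr1b3 are uncertain because the predicted gene Gm6644 has much the same values (3733 against 69.5 TPM). The others were the actin-binding peptide Tmsb4x (3192 against 431 TPM), the sodium pump regulator Fxyd4 (1798 against 80 TPM) and the secreted binding protein Igfbp7 (3059.7 against 1366 TPM).

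Most of the 12 genes with the largest rises in IM stood at around 1 TPM or less in cortex. Psca, a surface antigen of stratified epithelia, stood at 667, 871, 779, 894 and 678 TPM in the IM libraries and 1.51, 0.696, 0.346, 0.0986 and 0.47 TPM in the cortex libraries (log2 difference 8.95, SE 0.52, limma adjusted p = 4.51e-10, and 8.43 after scaling). The cortex libraries were spread widely at these low levels, with cortex library 1 the highest. Cck, the gene of the peptide hormone cholecystokinin, had 395, 499, 481, 501 and 293 TPM in IM and 0.864, 0, 0.924, 0.297 and 0.235 TPM in cortex (log2 difference 8.23, SE 0.24, limma adjusted p = 3.54e-13, and 7.73 after scaling). Slc14a2, whose products carry urea across the inner medullary collecting duct and thin descending limb, had 261, 259, 224, 274 and 266 TPM in IM and 0.108, 0.0827, 0.422, 0.0328 and 0.0195 TPM in cortex (log2 difference 7.84, SE 0.13, limma adjusted p = 1.05e-15, and 7.38 after scaling). Its IM libraries lay within a narrow band, and the order of the differences follows the log2(TPM + 1) scale, not the ratio.

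Aldh1a3, which turns retinaldehyde into retinoic acid, averaged 317 ± 43.7 TPM in IM and 0.497 ± 0.252 TPM in cortex, and Muc20, a membrane mucin, 366 ± 43.1 TPM in IM and 1.08 ± 0.286 TPM in cortex. Lypd2 and Ndrg4 followed the same course, at 246 against 0.493 TPM and 178 against 0.75 TPM. Aqp4, the basolateral water channel of principal cells, stood at 263, 306, 250.05, 321 and 259 TPM in the IM libraries and 5.5, 0.283, 3.35, 1.56 and 0.552 TPM in the cortex libraries, where cortex libraries 1 and 3 were above the rest. Sptssb, a small subunit of serine palmitoyltransferase, the enzyme that starts sphingolipid synthesis, had 123, 127, 127, 156 and 129.6 TPM in IM and 1.45, 0.191, 0.166, 0 and 0.169 TPM in cortex. Cortex library 1 was the highest of the cortex libraries in Psca, Cryab, Aqp4 and Sptssb, and the part of that library in their differences was not tested. The matrix glycoprotein Tnn, the tight junction gene Cldn11 and Cryab complete the 12 largest rises. In all 12 each IM library was above each cortex library, which the rule for naming them required. At least Aldh1a3, Sptssb and Cldn11 among them passed the filter on low values only through the IM libraries.

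All 12 genes with the largest falls stayed above 1 TPM on average in IM. Pvalb, parvalbumin, a calcium-binding protein of the early distal convoluted tubule, stood at 2.8, 1.86, 2.1, 2.12 and 1.76 TPM in the IM libraries and 64.8, 112, 84.4, 107 and 84.6 TPM in the cortex libraries (log2 difference -4.85, SE 0.25, limma adjusted p = 1.1e-10, and -5.40 after scaling). S100g, a calbindin, stood at 113, 107, 79.1, 61.7 and 121 TPM in IM and 2644, 3140.2, 2366, 2252 and 2816 TPM in cortex (log2 difference -4.80, SE 0.21, limma adjusted p = 2.42e-11, and -5.50 after scaling). Slc26a4, pendrin, the chloride and bicarbonate exchanger of type B intercalated cells, had 2.91, 2.85, 3.49, 2.07 and 3.72 TPM in IM and 71.6, 90.4, 80, 88.1 and 98.9 TPM in cortex (log2 difference -4.44, SE 0.15, limma adjusted p = 7.59e-13, and -5.02 after scaling). In all 3 the groups were far apart, and for S100g and Slc26a4 IM library 4 was the lowest. Slc12a3, the thiazide-sensitive sodium chloride cotransporter, averaged 30.2 ± 3.21 TPM in IM and 583 ± 109 TPM in cortex. Calb1, calbindin of the distal nephron, averaged 17.1 ± 3.87 TPM in IM and 357 ± 36.9 TPM in cortex, and Klk1, tissue kallikrein, 264 ± 50.9 TPM in IM and 4846 ± 484 TPM in cortex. Klk1 belongs to a cluster of close copies, so its reads are uncertain. The proximal tubule supplied the carboxylesterase Ces1g (1.11 against 36.1 TPM), the organic anion transporter Slc22a8 (22.8 against 359 TPM), the lactate cotransporter Slc5a12 (10.1 against 156 TPM) and the cytochrome P450 gene Cyp2e1 (206 against 2839 TPM). Acnat2, an acyl-CoA amino acid acyltransferase, stood at 4.24 against 77.7 TPM and the membrane protein gene Tmem52b at 9.37 against 184 TPM.

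The outer medulla stood nearer the cortex than the inner medulla for most of these genes. On a scale that puts cortex at 0 and IM at 1, after median-ratio scaling, the median OM position was 0.233 for the 2142 genes higher in IM by 2-fold or more and 0.214 for the 933 lower genes. OM was nearer to cortex in 1814 of the higher genes (84.7%) and in 900 of the lower genes (96.5%).

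On TPM as deposited, genes silent at either end of the axis were almost all silent in cortex. A gene was taken as silent in a zone at a mean under 0.1 TPM over its 5 libraries, with every library of the other end at 1 TPM or more. By this rule 150 genes were silent in cortex and 4 were silent in IM. Since these values chose the genes, the counts are a description and carry no test. The rule needs every IM library to reach 1 TPM, so all 150 passed the filter on low values. All but 8 of them passed only through IM, and those 8 also stood at 1 TPM or more in all 5 OM libraries. With a looser limit of 0.5 TPM for silence the counts were 539 and 63, and with a stricter level of 5 TPM at the other end they were 26 and 0. Median-ratio scaling would lower IM values (size factors 1.29 to 1.44) and raise cortex values (0.817 to 0.835). On deposited TPM a cortex gene therefore falls under a fixed limit more easily than an IM gene. Silence was not counted after scaling, and the part of the scale in these counts was not tested. Just inside the limit lay Meox2, at 8.48 TPM in IM and 0.0997 TPM in cortex, and just outside it Fgf7, at 3.89 TPM in IM and 0.101 TPM in cortex.

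Of the 150 genes silent in cortex, 28 are predicted genes or small RNA rows and 122 carry other names. Their median level in IM was 3.43 TPM and the highest was 133 TPM. In OM their median was 0.241 TPM, 34 were silent there too, and 8 were at 1 TPM or more in all 5 OM libraries. No reads at all were recovered in any cortex library for 25 of them. A count of 0 allows up to 3 reads over the 5 libraries, a level of 0.0155 to 0.949 TPM depending on the gene's length, for counting error only. Among them, picked after their values were seen, the neuropeptide Y receptor Npy5r averaged 11.4 TPM in IM from 1321 reads, and the limit of 0.0229 TPM in cortex makes it at least 496-fold higher in IM. The nuclear receptor Nr2e3 averaged 10.3 TPM in IM (at least 375-fold higher) and the secreted protein gene Cbln1 8.74 TPM (at least 371-fold higher).

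The most abundant of the silent genes was Tnn, the matrix glycoprotein tenascin N, which stood at 103, 146, 137, 172 and 109 TPM in the IM libraries and 0.127, 0.044, 0.0509, 0 and 0.0173 TPM in the cortex libraries, from 36336 and 15 reads. Cldn11, a claudin known from barriers in testis, brain and inner ear, had 65.9, 169, 79.4, 88.1 and 138 TPM in IM and 0.148, 0.0455, 0.0527, 0.0451 and 0 TPM in cortex. Tnn was highest in IM library 4, and Cldn11 in IM libraries 2 and 5. Krt15, a keratin of basal epithelial cells, averaged 20.1 ± 7.35 TPM in IM and 0.0313 ± 0.0475 TPM in cortex, and Lrrc26, an auxiliary subunit of large-conductance potassium channels, 23.2 ± 5.49 TPM in IM and 0.0623 ± 0.0352 TPM in cortex.

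Slc6a12, which carries the osmolyte betaine into cells, had 18, 34.8, 18.5, 15.5 and 27.7 TPM in IM and 0.0711, 0.0328, 0.19, 0.13 and 0 TPM in cortex, and it was the only osmoadaptive gene of the list described further on that was silent. IM libraries 2 and 5, with the highest Slc6a12, had the lowest levels of the thick ascending limb gene Slc12a1 of the 5 IM libraries. Prss35, a trypsin-like protein of the serine protease family, varied widely, at 7.01, 51.9, 21.9, 10.9 and 29.3 TPM in the IM libraries and 0.219, 0.0337, 0.0391, 0.0335 and 0.0797 TPM in the cortex libraries. Gsdmc3, a gasdermin of a cluster with near-identical copies, averaged 51 ± 19.6 TPM in IM and 0.0964 ± 0.103 TPM in cortex, and its reads are uncertain. Of the 150 genes silent in cortex, 11 stood in the gene families and lists examined here. They included, picked after their values were seen, the inducible prostaglandin synthase Ptgs2 (5.28 against 0.0601 TPM), the connexin Gjb5 (9.32 against 0.0315 TPM) and the Wnt ligand Wnt11 (5.56 against 0.0618 TPM).

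The 4 genes silent in IM were low in cortex as well. Sult2a3, a sulfotransferase of a family with close copies, stood at 0.155, 0, 0.134, 0 and 0 TPM in the IM libraries and 1.72, 5.55, 2.18, 5.51 and 4.92 TPM in the cortex libraries, with cortex libraries 1 and 3 below the others. Mmd2 averaged 0.0299 TPM in IM and 1.85 TPM in cortex, Apcs, the pentraxin serum amyloid P, 0.0881 TPM in IM and 1.82 TPM in cortex, and Etv4, an ETS transcription factor, 0.0915 TPM in IM and 1.24 TPM in cortex. Reads in IM summed to 2, 3, 4 and 10 over the 5 libraries, in the order named.

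**Figure D2:**
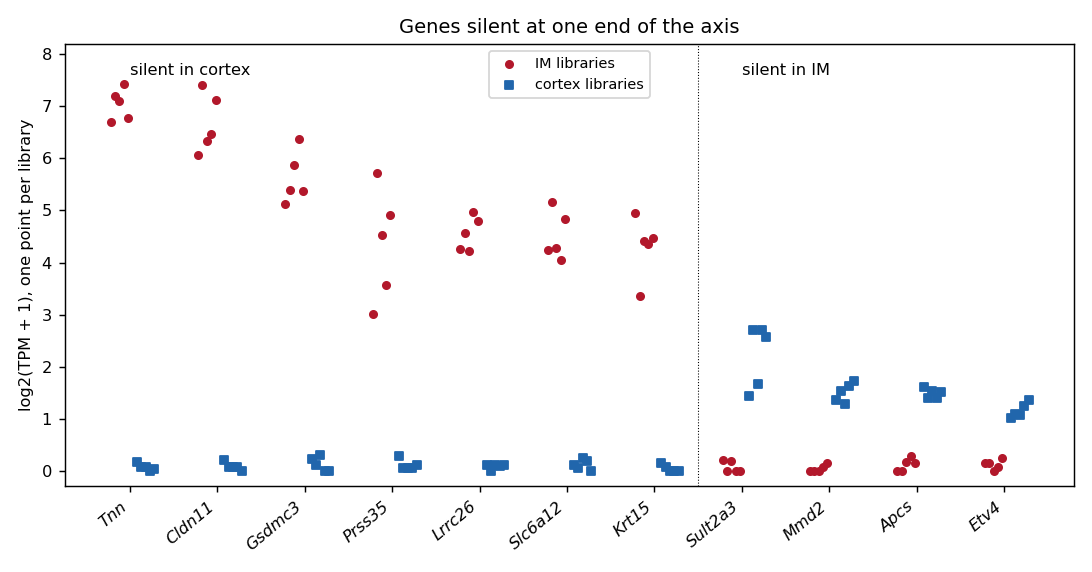
Each point is 1 library, IM in red circles and cortex in blue squares, for 7 of the most abundant genes silent in cortex, predicted genes left out, and the 4 silent in IM, with log2(TPM + 1) on the vertical axis. The genes silent in cortex reach up to 133 TPM on average in IM, while the 4 genes silent in IM reach at most 3.98 TPM on average in cortex.

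The asymmetry held among abundant genes, also on TPM as deposited and not counted after scaling. Of 7360 genes at 20 TPM or more in all IM libraries, 41 (0.557%) had a cortex mean under 1% of their IM mean. Of 5518 genes at 20 TPM or more in all cortex libraries, 0 had an IM mean under 1% of their cortex mean. The lowest remainder was that of Pvalb, whose IM mean was 2.35% of its cortex mean, followed by Ces1g (3.07%), Slc26a4 (3.5%), S100g (3.64%), Calb1 (4.79%), Tmem52b (5.09%), Slc12a3 (5.19%) and Klk1 (5.45%). The median ratio of IM to cortex was 0.105 over the convoluted proximal tubule list and 0.0532 over the distal list. Whether cortical tissue in the IM pieces made up this remainder was not tested.

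The regions just before the starts of these genes were read from RefSeq on build GRCm38.p6, which differs from the mm9 build named by the submitters, so these coordinates are RefSeq's own. Windows of 250 bases before to 50 after each start could be matched by symbol for 1491 of the 2142 genes higher in IM by 2-fold or more, 712 of the 933 lower genes, 100 of the 150 genes silent in cortex and 11267 of the 15052 genes tested. A gene with several starts has several windows. In all, 8 known motifs, chosen with results of these data in view, were searched on both strands. The HNF1 motif (GTTAAT, any base, then ATT), bound by factors of the proximal tubule, stood in 1.91% of the windows of lower genes (17 of 890), 0.354% of those of higher genes (7 of 1976), 0.8% of those silent in cortex (1 of 125), 0.315% of those of all genes tested and 0.399% of all windows. The HNF4 motif CAAAGTCCA stood in 2.02% of the windows of lower genes, 0.202% of those of higher genes, 0.8% of those silent in cortex, 0.448% of those tested and 0.475% of all windows. The tonicity-responsive element, the motif of NFAT5, stood in 3.04% of the windows of higher genes, 2.02% of those of lower genes, 4% of those silent in cortex (5 of 125), 2.23% of those tested and 2.69% of all windows.

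The others were read the same way, as shares of the windows of higher genes, lower genes, genes silent in cortex and all genes tested. The core TGGAAA with any 4 bases and a C after it, which overlaps the tonicity-responsive element, stood in 4.71%, 3.71%, 8% and 4.14% of them. The grainyhead motif AACCGGTT stood in 0.152%, 0%, 0% and 0.224%, and its looser form AACCNGTT, which contains the strict one, in 2.48%, 2.13%, 4% and 1.94%. The AP-2 motif GCCNNNGGC stood in 26.4%, 20.3%, 20% and 24.3%, and the GATA motif AGATAAG in 2.13%, 2.81%, 1.6% and 1.93%. Over all windows the shares were 5.04%, 0.146%, 2.09%, 16.6% and 3.04% in the same order. A match is a run of letters, not a shown binding site.

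The upstream regions of 5 genes are shown, picked because they hold a match, which most windows of their groups do not. Each has 250 bases, 5′ to 3′ on the gene's own strand, and ends at the base before the start, with the matched motif in capitals. The first 2 belong to genes silent in cortex and hold the tonicity-responsive element, and the other 3 belong to genes lower in IM and hold an HNF1 or HNF4 motif. Slc6a12 (chr6:121342324-121342573, plus strand) has its match 134 to 124 bases before the start and Tnn (chr1:160153576-160153825, minus strand) 82 to 72 bases before it. Sult2a3 (chr7:14123049-14123298, minus strand), the most abundant gene silent in IM, has an HNF1 match 51 to 42 bases before the start. Atp6v0a4 (chr6:38124587-38124836, minus strand), the cortex leader among the proton pump a subunits, has one 62 to 53 bases before it. Slc3a1 (chr17:85028097-85028346, plus strand), a cystine transporter subunit of the proximal tubule (233 ± 74.2 TPM in IM and 491 ± 45 TPM in cortex), has an HNF4 match 39 to 31 bases before the start. All 5 matches lie on the gene's own strand.
Slc6a12: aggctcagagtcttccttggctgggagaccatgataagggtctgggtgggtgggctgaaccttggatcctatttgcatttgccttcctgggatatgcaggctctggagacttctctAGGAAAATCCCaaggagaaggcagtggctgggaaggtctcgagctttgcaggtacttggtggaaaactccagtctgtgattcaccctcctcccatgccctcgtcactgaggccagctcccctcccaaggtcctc
Tnn: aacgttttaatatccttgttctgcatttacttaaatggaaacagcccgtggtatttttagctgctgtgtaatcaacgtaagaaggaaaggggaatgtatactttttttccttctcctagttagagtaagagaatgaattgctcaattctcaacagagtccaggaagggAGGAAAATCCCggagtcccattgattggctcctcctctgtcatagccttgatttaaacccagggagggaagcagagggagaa
Sult2a3: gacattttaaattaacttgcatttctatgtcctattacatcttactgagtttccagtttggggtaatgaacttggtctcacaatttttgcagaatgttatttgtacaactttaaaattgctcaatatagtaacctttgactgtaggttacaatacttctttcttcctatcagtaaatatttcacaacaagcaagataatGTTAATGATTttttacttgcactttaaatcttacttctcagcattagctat
Atp6v0a4: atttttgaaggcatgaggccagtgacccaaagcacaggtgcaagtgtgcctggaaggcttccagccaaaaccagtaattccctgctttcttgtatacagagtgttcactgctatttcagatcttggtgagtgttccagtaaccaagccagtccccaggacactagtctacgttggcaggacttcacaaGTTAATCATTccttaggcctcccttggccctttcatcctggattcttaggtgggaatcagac
Slc3a1: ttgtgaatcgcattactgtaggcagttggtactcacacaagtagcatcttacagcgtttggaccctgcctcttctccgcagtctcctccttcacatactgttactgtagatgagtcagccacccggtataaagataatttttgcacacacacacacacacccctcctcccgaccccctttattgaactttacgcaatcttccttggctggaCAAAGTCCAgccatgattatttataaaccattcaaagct

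Gene families kept their most abundant member at both ends more often than they changed it. Of 88 families, 45 had the same leader in IM and cortex, 14 switched, 24 changed leader without meeting the rule for a switch and 5 had a leader under 5 TPM at an end. TPM is per gene length, so members can be set side by side. A switch required that the IM leader be called higher and the cortex leader lower in IM on both scales. The families held 651 genes of the table, of which 562 were tested, and 264 of these were higher in IM and 167 lower on both scales, against 40% and 16% of all genes tested. Passing the filter on low values only through the IM libraries favours a higher call. Of the 264, 47 passed only in this way, since they reached 1 TPM in fewer than 5 libraries outside IM. The same holds for 770 of the 6015 genes higher among all tested, and counts of family and list members are a description.

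Salt transport switched in the cation chloride cotransporters. Slc12a1, the furosemide-sensitive cotransporter of the thick ascending limb, stood at 1314, 556, 1194, 1073 and 653 TPM in the IM libraries and 139.6, 141, 198, 152 and 155 TPM in the cortex libraries (log2 difference 2.53, SE 0.23, limma adjusted p = 5.5e-08, and 1.83 after scaling). It took 79% of the family's TPM in IM and 17.2% in cortex, while Slc12a3 took 2.5% in IM and 63.9% in cortex. IM libraries 2 and 5 were the lowest of IM but above every cortex library, and OM held Slc12a1 at 906 ± 176 TPM.

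Among the claudins, which set what passes between cells, the pore-forming Cldn2 of the proximal tubule took 5.18% in IM and 49.7% in cortex, and Cldn10, with forms in the thick limb and proximal tubule, took 27.8% of the family's TPM in IM and 24.6% in cortex. Cldn2 averaged 94.2 ± 31.3 TPM in IM and 352 ± 15.4 TPM in cortex and Cldn10 506 ± 98.3 TPM in IM and 175 ± 14.2 TPM in cortex. The share of Cldn10 hardly differed between the zones, and 9 of the 16 claudins tested were higher in IM and 4 lower on both scales. Cldn11 and Cldn23, among the 9, passed the filter only through IM.

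Acid and base transporters switched in the SLC4 family and in the a subunits of the proton pump. Slc4a11, a borate transporter homologue known for its role in the cornea, stood at 119.6, 199.9, 121, 161 and 146 TPM in the IM libraries and 1.9, 1.52, 1.26, 1.66 and 0.973 TPM in the cortex libraries (log2 difference 5.92, SE 0.15, limma adjusted p = 2.7e-14, and 5.33 after scaling). Slc4a4, the basolateral bicarbonate cotransporter of the proximal tubule, averaged 22.3 ± 4.74 TPM in IM and 211 ± 23 TPM in cortex, and the leaders' shares were 42% of the family's TPM in IM and 0.388% in cortex for Slc4a11 and 6.26% in IM and 55.8% in cortex for Slc4a4. Atp6v0a4, the kidney form of the a subunit, averaged 56.5 ± 8.65 TPM in IM and 157 ± 13.3 TPM in cortex, and the widely expressed Atp6v0a1 57.4 ± 8.53 TPM in IM and 23 ± 0.873 TPM in cortex. In IM the 2 forms differed by less than the spread between libraries.

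Sugar and osmolyte handling switched in 3 families. Slc2a1, the widely expressed glucose transporter GLUT1, stood at 133, 132, 134, 145 and 119 TPM in the IM libraries and 29.5, 30.7, 33.3, 33.6 and 31.9 TPM in the cortex libraries (log2 difference 2.03, SE 0.08, limma adjusted p = 2.16e-12, and 1.33 after scaling). Slc2a2, GLUT2, the exit path for glucose in the proximal tubule, stood at 12.7, 9.32, 15, 8.65 and 15 TPM in IM and 127, 152, 118, 152 and 162 TPM in cortex (log2 difference -3.47, SE 0.16, limma adjusted p = 3.08e-11, and -4.13 after scaling). Slc2a1 made up 50.4% of the family's TPM in IM and 10.1% in cortex and Slc2a2 4.61% in IM and 45.2% in cortex. In the SLC5 family the inositol transporter Slc5a3 stood at 140.5, 121, 153, 122 and 103 TPM in IM and 12, 12.1, 13.9, 12 and 12.1 TPM in cortex, and the glucose transporter Slc5a2 averaged 74.7 ± 13.6 TPM in IM and 689 ± 60.5 TPM in cortex. Slc5a3 held 27.9% of the family's TPM in IM and 0.966% in cortex and Slc5a2 16.3% in IM and 53.6% in cortex. Among the aldo-keto reductases Akr1b3 made up 63.3% of the family's TPM in IM and 0.984% in cortex, and Akr1a1, which acts in ascorbate synthesis and aldehyde removal, 15.2% in IM and 51.5% in cortex. Akr1a1 averaged 862 ± 109 TPM in IM and 3508 ± 287 TPM in cortex (log2 difference -2.03, SE 0.09, limma adjusted p = 5.71e-12, and -2.73 after scaling).

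Signalling and regulatory families switched as well. Wnt7b, a ligand of the collecting duct needed for the medulla to form, stood at 81.3, 155, 142, 147 and 121 TPM in the IM libraries and 0.48, 0.173, 0.558, 0.421 and 0.25 TPM in the cortex libraries (log2 difference 6.54, SE 0.14, limma adjusted p = 6.98e-15, and 6.04 after scaling). The cortex leader Wnt5b was low throughout, at 3.57 ± 0.377 TPM in IM and 6.21 ± 0.642 TPM in cortex, and the summed Wnt ligands came to 379 TPM in IM and 12.7 TPM in cortex. Of 11 Wnt ligands tested, 9 were higher in IM on both scales and 1 was lower. Of the 9, 4 passed the filter only through IM (Wnt4, Wnt8b, Wnt10a and Wnt10b). Among their secreted antagonists Frzb averaged 56.6 ± 5.8 TPM in IM and 17.1 ± 3.4 TPM in cortex and Sfrp1 35.1 ± 5.56 TPM in IM and 66.3 ± 10.9 TPM in cortex. Fgfr2, a receptor for FGFs of epithelia, stood at 49.2, 45.6, 52.6, 62.2 and 52.2 TPM in IM and 4.66, 5.68, 5.39, 4.98 and 4.96 TPM in cortex, and Fgfr4, which in liver binds FGF15, averaged 18.1 ± 3.62 TPM in IM and 42.8 ± 2.72 TPM in cortex. Both FGF receptors kept their groups apart, in opposite directions.

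In the family listed as retinaldehyde dehydrogenases, Aldh1a3 led in IM, with 91.7% of the family's TPM in IM and 1.75% in cortex. The cortex leader Aldh1a7 took 2.85% in IM and 66.4% in cortex, and whether it acts on retinaldehyde was not tested. The family's summed TPM was 345 in IM and 28.3 in cortex. Aldh1a3 passed the filter on low values only through the IM libraries, so its part in this switch is a description. Among the S100 proteins S100a11 led in IM, at 1307 ± 123 TPM in IM and 302 ± 32 TPM in cortex, and S100g, the cortex leader, took 3.05% in IM and 66.6% in cortex. The Krüppel-like factor Klf3 averaged 49.3 ± 8.85 TPM in IM and 16.4 ± 1.31 TPM in cortex and Klf9, a glucocorticoid-responsive member, 47.1 ± 9.5 TPM in IM and 73.8 ± 6.77 TPM in cortex. In IM the 2 factors lay within each other's spread, so their order there is not settled.

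**Figure D3:**
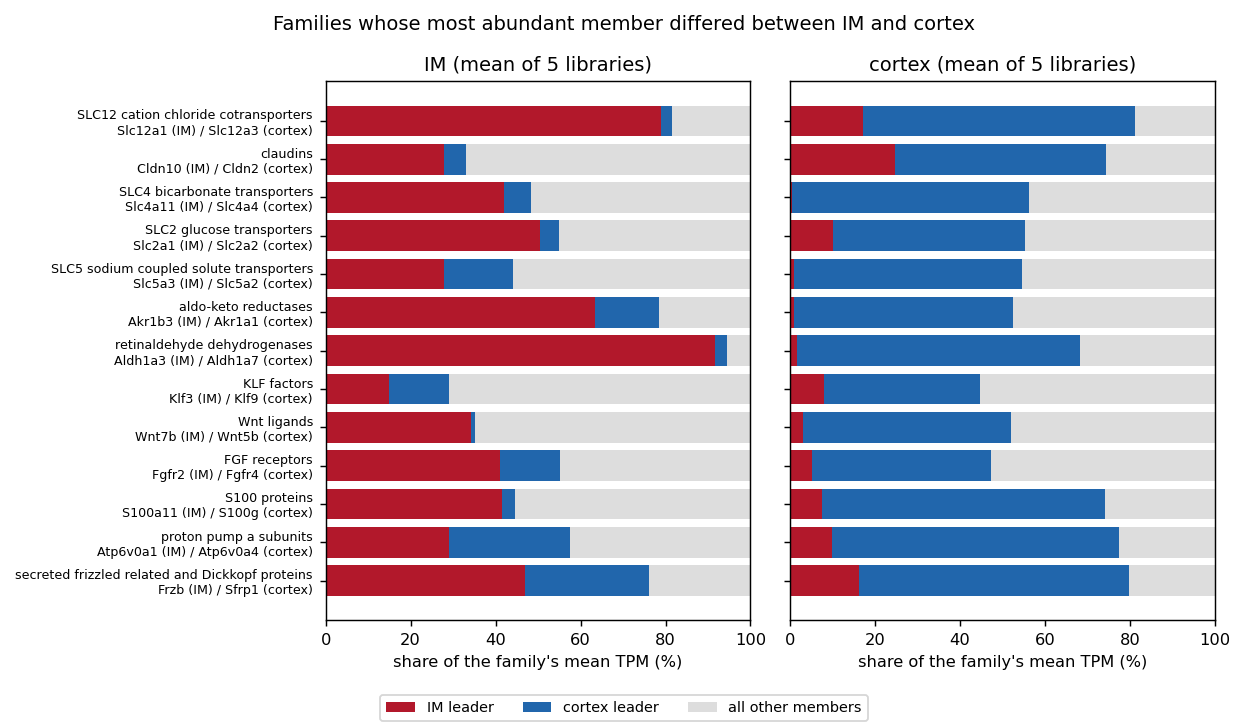
Bars show the share of each family's summed mean TPM taken by its IM leader (red), its cortex leader (blue) and all other members (grey), in IM (left panel) and cortex (right panel), for 13 of the 14 families that switched. The IM leader takes a large share in IM and a thin bar in cortex for Akr1b3, Aldh1a3, Slc4a11 and Wnt7b, while Cldn10 differs little between the panels.

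In the 24 families that changed leader without a switch, either the IM leader was not called higher or the cortex leader was not called lower on both scales. Aqp2 led the aquaporins in IM and Aqp1 in cortex, but Aqp1, a water channel constantly open in proximal tubule and thin descending limb, was itself higher in IM (1086 ± 92 TPM in IM and 509 ± 55.2 TPM in cortex; log2 differences 1.09 and 0.39 before and after scaling). Among the integrin alpha chains the IM leader was Itga3, a laminin receptor of epithelia (218 ± 38 TPM in IM and 15.5 ± 0.89 TPM in cortex), and the cortex leader Itgav (34.7 against 29.9 TPM) had a difference of 0.21 on the TPM scale and -0.47 after scaling.

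Transcription factors and enzymes were among these families. Hif1a, a hypoxia-inducible factor, averaged 184 ± 36.4 TPM in IM and 22.9 ± 1.05 TPM in cortex, and its relative Epas1 77.2 ± 9.54 TPM in IM and 45.6 ± 2.37 TPM in cortex. Nfat5, the factor activated by high tonicity, stood at 69.1, 74, 72.2, 85.7 and 75.8 TPM in the IM libraries and 11.9, 10.6, 11.1, 11.1 and 10.2 TPM in the cortex libraries, where Nfatc3 led (24.6 TPM in IM and 13 TPM in cortex). Gata3 led in IM (78.1 TPM in IM and 10.3 TPM in cortex) and Gata2 in cortex (62.5 TPM in IM and 15.6 TPM in cortex), and both were called higher in IM. Hnf4a, a regulator of proximal tubule genes, averaged 100.2 ± 33.6 TPM in IM and 396 ± 41.2 TPM in cortex. Sptssb, at 133 TPM in IM and 0.395 TPM in cortex, led in IM within 1 SD of Sptssa, at 125 TPM in IM and 84.3 TPM in cortex. The differences of Sptssa were 0.56 on the TPM scale and -0.13 after scaling. The liver-type phosphofructokinase Pfkl (113 against 32.3 TPM) led in IM and the muscle type Pfkm (42.6 against 41.2 TPM) in cortex. Of the fatty acid desaturases Scd2 (258 against 31.7 TPM) led in IM and Scd1 (123 against 97.6 TPM) in cortex.

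Among gene lists of cell types, those of the convoluted tubules were mostly lower in IM and those of thin limb and urothelium higher, while the podocyte and thick ascending limb lists did not separate the zones in the way their anatomy would. The lists are given by counts and medians, beside 40% higher and 16% lower on both scales and medians of 0.65 and 0.03 over all genes tested. All 12 genes of the convoluted proximal tubule were lower in IM, at 0.0651 to 0.313 of their cortex level. Their median difference was -3.20 on the TPM scale and -3.89 after scaling. The summed level of the list was 771 to 1378 TPM over the IM libraries and 9538 to 11366 TPM over the cortex libraries, with IM library 4 the lowest. In the list for the distal convoluted and connecting tubule 9 of 10 genes were lower and Wnk4, a kinase that regulates salt transport, was higher (255 ± 26.6 TPM in IM and 134 ± 12.1 TPM in cortex; log2 differences 0.93 and 0.23 before and after scaling), a call lost after scaling without cortex library 1 or without IM library 5 (scaled differences 0.17 and 0.20). The median difference of that list was -3.80 on the TPM scale and -4.33 after scaling.

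All 8 thin limb genes were higher in IM, with a median of 4.37 on the TPM scale and 3.68 after scaling and a summed level of 5195 to 8886 TPM over the IM libraries and 104 to 157 TPM over the cortex libraries. Most of that sum is Cryab (5533 ± 1261 TPM in IM), which is also a member of the osmoadaptive list and its sum. All 8 urothelial genes tested were higher too, with a median of 4.15 on the TPM scale and 3.69 after scaling and a summed level of 924 to 1209 TPM over the IM libraries and 2.06 to 9.54 TPM over the cortex libraries. Upk3b, a uroplakin, stood at 106, 118, 125, 175 and 95.9 TPM in IM and 0.0906, 1.5, 0.291, 0.124 and 0.346 TPM in cortex. Of these 2 lists, 1 and 3 members passed the filter on low values only through the IM libraries (Epha7, and Upk1b, Krt5 and Trp63). Such a passage favours a higher call.

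The principal cell list divided. Aqp2, Aqp3 (552 against 146 TPM), Fxyd4 and 3 others were higher in IM, while all 3 subunits of the epithelial sodium channel were lower on both scales. Scnn1a stood at 62.1, 31.7, 48.4, 45 and 38.8 TPM in the IM libraries and 55.4, 62.3, 63.4, 65.9 and 65.9 TPM in the cortex libraries (log2 difference -0.49, SE 0.13, limma adjusted p = 0.00235, and -1.18 after scaling). The ranges overlapped, since IM library 1 was above the lowest cortex library. Scnn1b averaged 32.5 ± 9.94 TPM in IM and 50.1 ± 5.28 TPM in cortex and Scnn1g 22.3 ± 3.98 TPM in IM and 36.6 ± 2.76 TPM in cortex. The intercalated cell list divided too, with 3 of 11 higher and 7 lower. Slc4a1, the anion exchanger of acid-secreting type A cells, stood at 65.5, 49.7, 55.9, 87.7 and 47.6 TPM in IM and 14.5, 18.5, 14.8, 14 and 17.1 TPM in cortex (log2 difference 1.86, SE 0.13, limma adjusted p = 1.68e-09, and 1.18 after scaling), and the type A water channel Aqp6 averaged 190.2 ± 51.8 TPM in IM and 29.3 ± 3.65 TPM in cortex. The transcription factor Dmrt2 averaged 13.3 ± 3.32 TPM in IM and 2.56 ± 0.469 TPM in cortex. Among the lower members were the proton pump genes Atp6v1b1 (67.9 ± 13.5 TPM in IM and 150.4 ± 14.4 TPM in cortex) and Atp6v0a4, and Slc26a4.

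The IM libraries also held transcripts of segments that by textbook anatomy do not reach it. Thick ascending limb genes summed to 3248 to 6355 TPM over the IM libraries and 1779.5 to 2264 TPM over the cortex libraries, and to 3478 to 6819 TPM over the OM libraries. Of that list 6 of 10 were higher in IM and 1 lower, and Umod, uromodulin, stood at 3096, 1492, 3337, 2741 and 1886 TPM in the IM libraries and 779.5, 936, 1082, 934 and 978 TPM in the cortex libraries (log2 difference 1.36, SE 0.24, limma adjusted p = 9.38e-05, and 0.65 after scaling). IM libraries 2 and 5 were low in Umod. Without cortex library 1, IM library 1 or IM library 3 Umod was no longer called after scaling, at 0.59, 0.55 and 0.54. Straight proximal tubule genes summed to 648 to 2129 TPM over the IM libraries and 1926 to 3278 TPM over the cortex libraries, and to 4295 to 5343 TPM over the OM libraries, with IM library 4 the lowest. Of that list 5 of 8 were lower in IM, such as the amino acid transporter Slc7a13 (442 ± 165 TPM in IM and 841 ± 163 TPM in cortex). Without cortex library 1 or without IM library 4, limma also called 2 members higher, Cyp7b1 (scaled difference 1.79 without cortex library 1, 1.71 without IM library 4) and Slc22a13 (0.92 and 0.91), which stood at 1.29 and 0.56 with all libraries. Without cortex library 3 it also called Cyp7b1 (1.48, limma adjusted p = 0.0428). The part that outer medullary tissue in the IM pieces has in these values was not tested. Slc12a1, Umod and Cldn10 are members of the thick limb list.

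**Figure D4:**
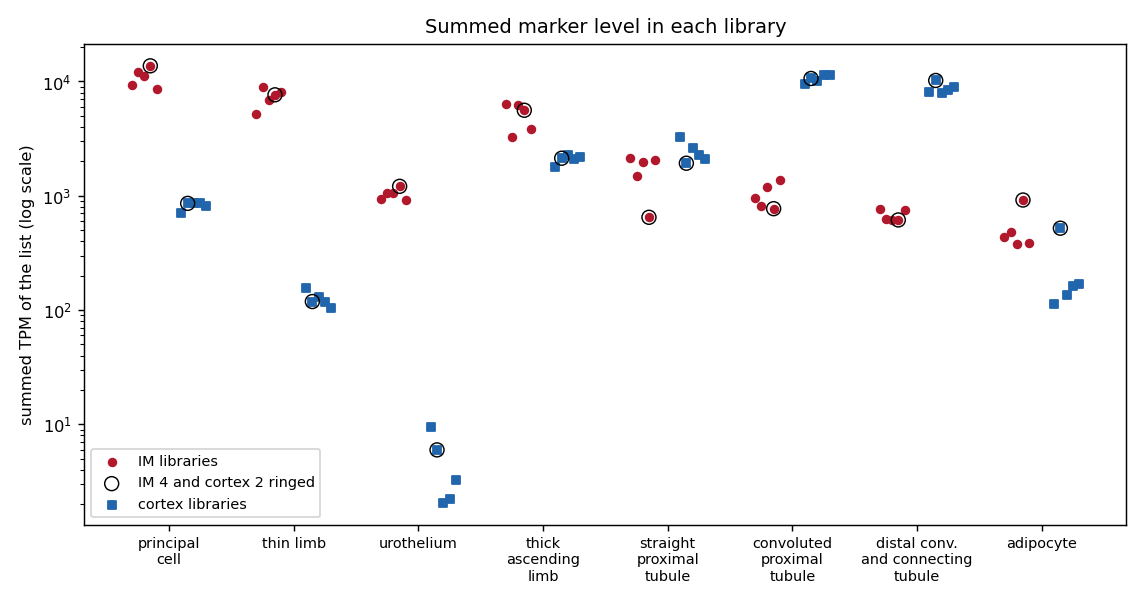
The summed TPM of 8 marker lists in each library is shown on a log scale, IM in red circles and cortex in blue squares, with IM library 4 and cortex library 2 ringed. Thin limb, urothelial and principal cell sums are higher in every IM library, convoluted proximal and distal sums are lower in every IM library, and the ringed libraries hold the highest adipocyte sums, 918 TPM in IM and 520.2 TPM in cortex.

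Outside the tubule, 8 of 10 endothelial genes were higher in IM on both scales. Plvap, the diaphragm protein of fenestrated vessels such as ascending vasa recta, stood at 504, 749, 697, 805 and 625 TPM in IM and 81.9, 85.7, 84.9, 79.7 and 74.7 TPM in cortex (log2 difference 3.02, SE 0.10, limma adjusted p = 4.34e-13, and 2.32 after scaling), and Emcn, endomucin, averaged 587 ± 62.3 TPM in IM and 47.8 ± 5.02 TPM in cortex. The median of the list was 2.06 on the TPM scale and 1.38 after scaling. Of 10 interstitial fibroblast genes 4 were higher and 1, the calcification inhibitor Mgp (97.2 ± 36.7 TPM in IM and 166 ± 25.4 TPM in cortex), was lower, and Pdgfra, a receptor of fibroblasts, averaged 48.6 ± 8.93 TPM in IM and 4.25 ± 0.194 TPM in cortex. Of 10 podocyte genes 5 were lower, such as Clic5 (20.9 ± 1.23 TPM in IM and 34 ± 2.53 TPM in cortex), and the growth inhibitor Cdkn1c was higher (35.4 ± 4.01 TPM in IM and 16.1 ± 3.54 TPM in cortex). Their summed level was 133 to 160.4 TPM over the IM libraries and 138 to 173 TPM over the cortex libraries, although glomeruli lie in the cortex by textbook anatomy. Podxl, podocalyxin, which endothelium also expresses, averaged 63 ± 5.86 TPM in IM and 48 ± 5.2 TPM in cortex, and its log2 differences were 0.39 and -0.30 before and after scaling. Ren1, renin, was the only lower member of 7 smooth muscle and renin genes (16.6 ± 6.93 TPM in IM and 82.6 ± 37.1 TPM in cortex), with 0 higher. Leukocyte genes had 2 of 10 higher, led by lysozyme, Lyz2 (71.5 ± 22.3 TPM in IM and 24.5 ± 5.3 TPM in cortex), and 1 lower, Ptprc (2.35 ± 0.629 TPM in IM and 3.08 ± 0.181 TPM in cortex), which was not called on the TPM scale without IM library 2, IM library 3 or cortex library 4 (log2 differences -0.22, -0.25 and -0.28). Among 7 adipocyte genes Fabp4 alone was called (456 ± 142 TPM in IM and 166 ± 112 TPM in cortex), a gene also expressed in endothelium. Leaving out cortex library 1, OM library 1 and IM library 4 together, its scaled difference was 0.64 and not called. Of 7 erythroid genes 0 were called on both scales. The adrenal cortex list had 1 gene tested, Star, which was higher (4.69 ± 0.458 TPM in IM and 2.19 ± 0.207 TPM in cortex).

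Pathway lists separated osmotic adaptation from oxidative metabolism. Of 12 osmoadaptive genes 11 were higher in IM on both scales, with a median of 3.79 on the TPM scale and 3.12 after scaling and a summed level of 7166 to 13777 TPM over the IM libraries and 304 to 395 TPM over the cortex libraries. Besides Akr1b3 and Cryab the most abundant was Hspa1b, an inducible heat shock chaperone, at 285, 793, 553, 503 and 448 TPM in IM and 6.14, 13.3, 5.93, 11.4 and 11.3 TPM in cortex, whose reads are shared with its copy Hspa1a. The taurine transporter Slc6a6 went the other way, at 104, 88.6, 87.6, 79.9 and 93.9 TPM in IM and 122, 106, 113, 107 and 111 TPM in cortex (log2 difference -0.30, SE 0.09, limma adjusted p = 0.00482, and -0.997 after scaling). Of 4 hyaluronan genes tested, the scavenger receptor Stab1 (30.1 ± 7.17 TPM in IM and 6.41 ± 0.557 TPM in cortex) and the synthase Has3 (1.28 ± 0.0828 TPM in IM and 0.447 ± 0.131 TPM in cortex) were higher, and the hyaluronidase Hyal2 was lower (50.8 ± 4.02 TPM in IM and 72.8 ± 4.8 TPM in cortex). Has3 passed the filter only through the IM libraries. Hyal1 had a difference of 0.38 on the TPM scale and -0.26 after scaling.

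All 9 genes of gluconeogenesis and fructose use were lower in IM, with a median of -2.01 on the TPM scale and -2.70 after scaling. Pck1, which commits carbon to glucose, averaged 293 ± 99 TPM in IM and 1223 ± 244 TPM in cortex, and Fbp1, a phosphatase of the same pathway, 385 ± 138 TPM in IM and 1590.2 ± 102 TPM in cortex. Of 14 genes of amino acid breakdown 13 were lower, such as Gatm, which makes the creatine precursor (55.7 ± 16.1 TPM in IM and 712 ± 63.9 TPM in cortex), Glyat, which joins glycine to acids (131 ± 45.7 TPM in IM and 914 ± 55 TPM in cortex), and Fah, the last enzyme of tyrosine breakdown (211 ± 73.6 TPM in IM and 644 ± 43 TPM in cortex). The exception was the mitochondrial arginase Arg2, at 20.7, 12.4, 14.1, 14.5 and 13.5 TPM in IM and 5.47, 3.36, 3.34, 3.46 and 2.84 TPM in cortex, where IM library 1 and cortex library 1 were highest. Of 15 subunits of oxidative phosphorylation 14 were lower on both scales by small amounts, with a median of -0.46 on the TPM scale and -1.16 after scaling, such as Atp5b (2452 ± 234 TPM in IM and 3354 ± 97.3 TPM in cortex), Cox4i1 (1961 ± 272 TPM in IM and 2437 ± 88.8 TPM in cortex) and Cox6c (1622 ± 252 TPM in IM and 2154 ± 111 TPM in cortex). Under quantile normalization the differences of Atp5b and Cox4i1 were 0.04 and 0.07. Of 16 genes of fatty acid oxidation 10 were lower and 0 higher, such as the mitochondrial dehydrogenase Hadh (251 ± 27.3 TPM in IM and 649.6 ± 34 TPM in cortex).

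Glycolysis genes were called in both directions. Of 16 genes 6 were higher and 3 lower, with medians of 0.49 on the TPM scale and -0.21 after scaling, and the summed level was 7885 to 8771 TPM over the IM libraries and 7741 to 8078 TPM over the cortex libraries. The lower members were Gapdh (1762 ± 94.9 TPM in IM and 2659 ± 59 TPM in cortex), Tpi1 (742 ± 74 TPM in IM and 1187 ± 48.2 TPM in cortex) and Pgk1 (463 ± 21.1 TPM in IM and 555 ± 12.3 TPM in cortex). The higher members included Slc2a1 and Pfkl, both leaders named above. The hypoxia list had 5 of 11 higher and 4 lower. The lower ones were Vegfa, a vessel growth factor (121 ± 24.5 TPM in IM and 172 ± 11.5 TPM in cortex), the membrane carbonic anhydrase Car9 (13 ± 4.94 TPM in IM and 24.8 ± 2.48 TPM in cortex), Bnip3 (88.7 ± 8.52 TPM in IM and 153 ± 9.95 TPM in cortex) and Ndrg1 (330.3 ± 81.2 TPM in IM and 1475 ± 239 TPM in cortex). Prostaglandin genes were higher in 7 of 11 cases, 1 of which, Ptgs2, passed the filter only through IM. They were led by the receptor Ptger1 (338 ± 77.1 TPM in IM and 23 ± 2.88 TPM in cortex) and the synthase Ptges (117 ± 19 TPM in IM and 15.8 ± 1.04 TPM in cortex). The synthase Ptges2 was lower (42.9 ± 2.57 TPM in IM and 47.3 ± 2.48 TPM in cortex, limma adjusted p = 0.0496), a call lost when any 1 of 8 of the 10 libraries was left out. Of 15 sphingolipid genes 3 were higher, Sptssb, the ceramide synthase Cers5 (84.7 ± 3.05 TPM in IM and 44.3 ± 4.47 TPM in cortex) and the sulfatide enzyme Gal3st1 (84.8 ± 13.3 TPM in IM and 17.8 ± 1.24 TPM in cortex), and 4 were lower. Of the 3, Sptssb passed the filter only through IM. In the fit after scaling 11 of the 15 were lower, and the median of the list was 0.24 on the TPM scale and -0.46 after scaling. Cers2 and Degs1, both abundant in the 2 zones, had differences of 0.14 and 0.24 on the TPM scale and -0.56 and -0.46 after scaling.

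**Figure D5:**
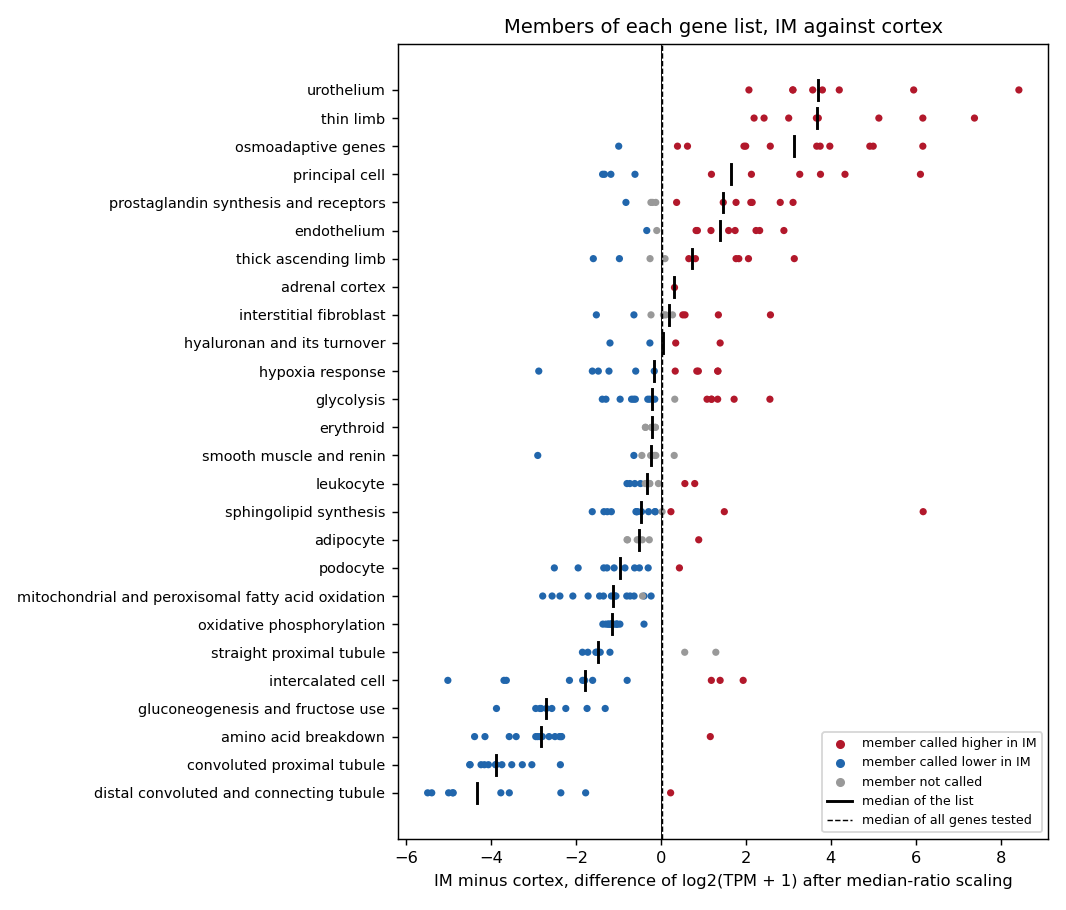
Each point is a gene of 1 of the 26 lists, placed by its IM minus cortex difference of log2(TPM + 1) after median-ratio scaling, in red or blue where limma called it higher or lower in IM on that scale and in grey where it did not. Lists are ordered by their median (black bar), from urothelium at 3.69 to the distal convoluted and connecting tubule at -4.33, beside the median of all genes tested (dashed line, 0.03).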

How the data were processed

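Bulk RNA-seq of total RNA from microdissected kidney zones was deposited by the authors as TPM per gene, 1 table of 15 libraries and 25030 gene rows. Reads were paired-end and, per the submitters' processing notes, STAR and build mm9 were used. The counting tool, the gene annotation and the strand setting are not stated in the labels or notes, so overlapping and antisense genes and close copies (Akr1b3 and Gm6644, Hspa1a and Hspa1b, the Klk1, Gsdmc and Sult2a clusters, the globins) are uncertain. The 92 spike-in rows were 0 throughout.

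From the deposited TPM, whole reads were recovered at a tolerance of 0.001 for 19997 of 19997 genes with enough steps, which gave the depths. The 15052 genes that reached 1 TPM in 5 or more of 15 libraries were tested on log2(TPM + 1) with limma 3.58.1 (trended, robust variance; statmod 1.5.0, R 4.3.3), with zone as the only term and Benjamini-Hochberg adjustment at 0.05. The same fit was run after median-ratio scaling, with size factors of 1.29 to 1.44 in IM and 0.817 to 0.835 in cortex. The models were also run on reads simulated around the cortex means, with known changes put into a small set of genes. That setting lacks the wide shift between the zones seen here, so it cannot show how the calls behave under such a shift.

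The members and lists were chosen with earlier results of these data known. The genes named were the 12 largest rises and 12 largest falls among genes called on both scales without overlap of libraries and at 20 TPM or more in the higher zone, up to 8 silent genes per direction, family leaders, the 6 genes that gained and the 6 that lost most TPM, and of each list the 3 most abundant members and those against its majority. Any other gene named was chosen after its values were seen. Predicted genes and small RNAs were left out of names, and some genes that the rule names are not reported here. A family leader had the highest mean TPM, at 5 or more. Tables and figures were made with numpy 2.4.6, pandas 2.3.3 and matplotlib 3.10.9. Upstream sequences are RefSeq's on GRCm38.p6. The alternatives were another pseudocount, no filter, 10 libraries, quantile normalization, a replicate block and leaving out libraries.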

Additional observations from a re-analysis of the deposited data

Results flagged for a closer look

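Of 334 groups of 5 libraries examined, each 1 named gene in IM or in cortex, 23 held a library that stood apart from the other 4 by Dixon's test at the 95% level. Chance flags about 1 in 20 such groups. IM library 4 stood apart in 7, cortex library 2 in 6, cortex library 1 in 4, IM library 1 in 2, cortex library 3 in 2 and IM library 3 and cortex library 5 in 1 each.

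Adipocyte genes stood out in IM library 4 and cortex library 2. In IM library 4 the brown fat uncoupling protein Ucp1 was at 15.2 TPM (0.656 to 3.99 TPM in the other 4), adipsin, Cfd, at 130.5 TPM (3.46 to 19.8 TPM), the fatty acid carrier Fabp4 at 698 TPM (353 to 448 TPM) and Scd1 at 279 TPM (64.3 to 102 TPM). In cortex library 2 Ucp1 was at 45.9 TPM (0.306 to 5.52 TPM), Fabp4 at 366 TPM (108 to 123 TPM) and Scd1 at 232 TPM (43.1 to 93.2 TPM). The part of fat tissue in these libraries was not tested.

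IM library 4 was also high in Sptssb (156 TPM, against 123 to 130 TPM in the others), Stab1 (42.5 TPM, against 23.8 to 28.4 TPM) and Atp6v0a1 (72.2 TPM, against 52.0 to 57.6 TPM). IM library 1 was high in Arg2 (20.7 TPM, against 12.4 to 14.5 TPM) and low in Klf3 (33.5 TPM, against 52.7 to 53.8 TPM). IM library 3 was low in the connexin Gjb1 (55.2 TPM, against 64.8 to 67.3 TPM).

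Cortex library 2 was high in Cox4i1 (2592 TPM, against 2367 to 2420 TPM) and Podxl (57.2 TPM, against 45.1 to 46.5 TPM), and low in Klf9 (62.1 TPM, against 74.7 to 79.0 TPM). Cortex library 1 was high in Arg2 (5.47 TPM, against 2.84 to 3.46 TPM), the glutathione transferase Gstm1 (651 TPM, against 388 to 457 TPM) and Itgav (31.3 TPM, against 29.2 to 29.8 TPM), and low in Sfrp1 (47.1 TPM, against 68.1 to 72.8 TPM). Cortex library 3 was high in Slc12a1 (198 TPM, against 140 to 155 TPM) and Slc5a3 (13.9 TPM, against 12.0003 to 12.1 TPM), and cortex library 5 was low in Itga3 (13.9 TPM, against 15.6 to 16.2 TPM).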

How the results depend on the processing

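The scale changed the counts of genes called. Under quantile normalization 5640 genes were higher and 5827 lower in IM, by 2-fold or more 1912 and 1854. After median-ratio scaling the differences of 15 named genes changed sign: Acsl1 (-0.32), Aldoa (-0.15), Bmp4 (-0.10), Cers2 (-0.56), Csf1r (-0.062), Degs1 (-0.46), Fabp3 (-0.24), Hyal1 (-0.26), Itgav (-0.47), Podxl (-0.30), Ptges3 (-0.12), Rgs5 (-0.25), Sptssa (-0.13), Tagln (-0.15) and Ubp1 (-0.018). Under quantile normalization 10 did: Acsl1 (-0.030), Atp5b (0.043), Cox4i1 (0.065), Csf1r (-0.060), Hyal1 (-0.48), Itgav (-0.43), Podxl (-0.11), Rgs5 (-0.35), Star (-0.064) and Tagln (-0.0075). The cause was not tested. With a pseudocount of 0.1 the counts were 10543 higher and 2403 lower, with no filter 12173 and 2708, and with the 10 IM and cortex libraries alone 10454 and 2346.

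Silent genes followed their limits: 25 in cortex and 0 in IM at 0 TPM in every library, 539 and 63 under 0.5 TPM, and 26 and 0 with 5 TPM or more at the other end. Without 1 library at a time there were 142 to 166 silent in cortex and 4 to 7 silent in IM, 7 without IM library 5 or cortex library 3.

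Without 1 library at a time limma called 10051 to 10503 genes higher and 2324 to 2437 lower on the TPM scale, 4199 to 4758 and 850 to 971 by 2-fold or more. After scaling it called 5467 to 5894 higher and 5646 to 5756 lower, 1840 to 2143 and 1836 to 2028 by 2-fold or more. Family switches numbered 12 to 14 and other changes of leader 22 to 25. Leaving out an IM library lowered the genes tested to between 14618 and 14627, since a gene at 1 TPM only in IM then misses 5 libraries.

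Leaving out cortex library 1, OM library 1 and IM library 4 together, chosen after seeing the data, gave 9978 higher and 2352 lower on the TPM scale, 158 genes silent in cortex, 4 silent in IM and 13 switches, and 17 of 26 lists had the same counts on both scales. Of 152 named genes called on both scales, Fabp4, Ptges2, Ptprc, Umod and Wnk4 lost the call in at least 1 of these fits. The lists that differed without the 3 libraries were straight proximal tubule (2 higher, 5 lower), podocyte (1 and 6), distal tubule (0 and 9) and adipocyte (0 and 1), and 5 lists in which 1 member (Epha7, Trp63, Has3, Sptssb or Ptgs2) no longer passed the filter.

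Libraries with the same number are not stated to share an animal. Their deviations correlated at -0.0035 to 0.2177, over 0.1 in 1 of 5 pairs, and those of other pairs at -0.2745 to 0.2067. Of the 5 IM libraries, 3 correlated best with the cortex library of their own number. Whether a number marks an animal cannot be told from these values, and the numbers were not taken as pairs. With the number as a replicate block 10648 genes were higher and 2466 lower (after scaling 6092 and 5913). Depth limits statements on genes under 1 TPM. The median number of reads behind 1 TPM was 20.6 to 32.8 per library, with more for long genes and fewer for short ones.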

Other observations

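In several further families most members were called in 1 direction. The genes given as examples here were picked after their values were seen, and each count is of family members called on both scales, beside 40% higher and 16% lower over all genes tested. Some members passed the filter on low values only through the IM libraries, which favours a higher call. They were 2 of the cadherins, 1 SOX factor, 2 TGF-beta ligands, 1 annexin, 1 FXYD gene and 1 gene of the SLC22 family. All 9 cadherins tested were higher in IM, among them the kidney cadherin Cdh16 (1274 ± 206 TPM in IM and 592 ± 54.4 TPM in cortex) and the epithelial cadherin Cdh1 (322 ± 34.3 TPM in IM and 79.9 ± 6.09 TPM in cortex). Of 8 SOX factors 7 were higher and 0 lower, such as Sox4 (25.7 ± 2.99 TPM in IM and 5.8 ± 0.429 TPM in cortex), and all 3 TGF-beta ligands were higher, led by Tgfb1 (29.6 ± 4.87 TPM in IM and 7.84 ± 0.539 TPM in cortex). Among the annexins, which bind membranes at high calcium and whose leader changed to Anxa2 (597 ± 74.8 TPM in IM and 36.9 ± 4.01 TPM in cortex), 9 of 11 were higher and 1 was lower. Adcy6, the leader of the adenylyl cyclases, which make cyclic AMP downstream of the vasopressin receptor, averaged 234 ± 31.5 TPM in IM and 50.7 ± 1.66 TPM in cortex. The adenosine receptor Adora1 stood at 60.9 ± 13.4 TPM in IM and 0.957 ± 0.226 TPM in cortex, and the second urea transporter gene Slc14a1, of vasa recta and red cells, at 43.9 ± 6.06 TPM in IM and 0.191 ± 0.165 TPM in cortex. Both belong to families with a leader under 5 TPM at an end.

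Other families had more members lower than higher or were divided. Of 16 organic ion transporters of the SLC22 family 9 were lower and 2 higher, and the urate transporter Slc22a12 led at both ends (382 ± 139 TPM in IM and 1459 ± 117 TPM in cortex). All 3 superoxide dismutases were lower. Of 13 carbonic anhydrases 7 were lower, such as Car4 (78.1 ± 12.4 TPM in IM and 302 ± 14.4 TPM in cortex) and Car12 (28.3 ± 4.83 TPM in IM and 182 ± 29.9 TPM in cortex), and 3 were higher. In the last steps of glycolysis the pyruvate kinase Pkm was higher (760.2 ± 89.6 TPM in IM and 205 ± 26.7 TPM in cortex) while the lactate dehydrogenase Ldhb was lower (1009.7 ± 203 TPM in IM and 2109 ± 119.6 TPM in cortex), and the hexokinase Hk1 averaged 208 ± 28.8 TPM in IM and 38.2 ± 4.75 TPM in cortex. Fxyd2, a regulator of the sodium pump, averaged 4477 ± 594 TPM in IM and 4793 ± 298 TPM in cortex, while 6 of 7 FXYD genes were higher.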
